A study of Mus musculus with 20 samples.

Results

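A set of 10 genes of glucose production and amino acid nitrogen transfer were followed across mouse liver: Pck1, G6pc, Fbp1, Pcx, Ppargc1a, Slc37a4, Tat, Got1, Gpt and Gpt2. The genes were chosen by symbol, with earlier results of these data known, and make up 10 of the 29915 genes in the read count table. The other gene lists below were chosen in the same way. All 10 symbols have a row, 9 of them hold counts, and the same 9 passed the filter on low counts. The livers came from male mice on regular chow, housed with 12 h of light and 12 h of darkness, and were collected between Zeitgeber times 15 and 17 (hours after lights on). The mice carried wild-type Prox1, or their hepatocytes made the K556R form, in which the lysine that takes up SUMO, a small protein attached to other proteins, is replaced by arginine. Prox1 is a homeodomain transcription factor of hepatocytes. K556R expression was switched on by Cre recombination when the mice were 8 weeks old, and livers were taken 11 weeks later. The titles call the genotypes Ctrl and Cre, the labels do not name the promoter that drove Cre, so what Cre alone did and what K556R did cannot be told apart. The 4 groups were fasted and refed mice of each genotype, each with 5 libraries. Of the 20 libraries, 14 were labelled batch 1 and 6 batch 2, and batch 2 held 3 of the K556R refed libraries but 1 of every other group. A library is named by its repeat number and batch, such as 1_b1. The labels do not tie the repeats to animals, so the p-values measure only the spread between these libraries, which may be technical.

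Gluconeogenesis rebuilds glucose from lactate, glycerol and amino acids when food is withheld, and it takes place mainly in the liver. Pyruvate carboxylase (Pcx) makes oxaloacetate in mitochondria, cytosolic phosphoenolpyruvate carboxykinase (Pck1) turns oxaloacetate into phosphoenolpyruvate, fructose-1,6-bisphosphatase (Fbp1) bypasses the phosphofructokinase step, and glucose-6-phosphatase (G6pc) with its transporter (Slc37a4) releases free glucose in the endoplasmic reticulum. Transaminases supply carbon and move nitrogen: tyrosine aminotransferase (Tat) starts tyrosine breakdown, cytosolic aspartate aminotransferase (Got1) interconverts aspartate and oxaloacetate, and the alanine aminotransferases Gpt (cytosolic) and Gpt2 (mitochondrial) convert alanine to pyruvate. Glucagon acting through cyclic AMP, and glucocorticoids, raise Pck1, G6pc and Tat in fasting, with the coactivator PGC-1α (Ppargc1a) as a known amplifier. Insulin represses Pck1 and G6pc after a meal.

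Promoter sequence is shown for the members whose levels moved most and for those that serve as a contrast. Windows of 250 bases before the transcription start were taken from RefSeq (build GRCm38.p6), and 9 of the 10 members had at least 1 window, with Gpt the one that had none. The 3 longer stretches stop where a GENCODE M21 transcript begins, which for Pck1 leaves 225 bases. In GENCODE M21 (GRCm38), Pck1 spans chr2:173153048-173159273 on the plus strand, G6pc chr11:101367561-101377903 on the plus strand, Fbp1 chr13:62864753-62888282 on the minus strand, Got1 chr19:43499752-43524605 on the minus strand and Tat chr8:109990437-109999803 on the plus strand. Capitals mark matches to the motifs searched, and the sequences read 5′ to 3′ on the gene's own strand.
Pck1, chr2:173152823-173153047, plus strand: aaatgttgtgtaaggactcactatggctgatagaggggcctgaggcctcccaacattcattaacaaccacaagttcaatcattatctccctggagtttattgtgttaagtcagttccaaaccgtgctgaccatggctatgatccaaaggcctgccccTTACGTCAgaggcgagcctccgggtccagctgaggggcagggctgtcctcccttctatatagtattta
Got1, chr19:43524606-43524855, minus strand: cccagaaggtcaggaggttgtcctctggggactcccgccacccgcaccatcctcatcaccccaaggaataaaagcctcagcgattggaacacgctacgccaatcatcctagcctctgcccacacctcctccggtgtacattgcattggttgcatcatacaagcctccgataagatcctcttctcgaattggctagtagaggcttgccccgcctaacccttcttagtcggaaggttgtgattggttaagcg
Fbp1, chr13:62888283-62888532, minus strand: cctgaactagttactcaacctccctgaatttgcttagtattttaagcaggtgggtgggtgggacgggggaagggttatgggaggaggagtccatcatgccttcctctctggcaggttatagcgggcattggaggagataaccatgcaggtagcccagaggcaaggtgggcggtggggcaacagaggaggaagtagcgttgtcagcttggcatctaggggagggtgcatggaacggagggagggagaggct

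The letters searched on both strands were the cyclic AMP response element TGACGTCA, its half-site TGACG, the FOXO and FOXA motif TGTTTAC, the glucocorticoid receptor half-site TGTTCT and the HNF4A motif CAAAGTCCA. The half-site lies inside the full element. Over all 32851 RefSeq windows of the same length, 1.55% held the full element, 17.8% the half-site, 3.17% the FOXO and FOXA motif, 16.1% the glucocorticoid half-site and 0.38% the HNF4A motif. Among the members, the half-site was found in the windows of Pck1, Ppargc1a and Slc37a4, and none of the other motifs was found in any member's window. After the windows had been read, the core TTACGT was searched too, and 2.40% of all windows held it. Since the core was picked with the members' windows in view, its presence there is no test against that share. The core was found 93 bases before the Pck1 start, where it overlaps the half-site, and in windows of G6pc, Ppargc1a and Slc37a4. The shares above count windows, and Slc37a4 had 3. Its window 1 held the core, its overlapping windows 1 and 2 the half-site, and its window 3 neither. The stretches around the core are shown over 30 bases each, so that the shared core can be compared.
Pck1, chr2:173152968-173152997: aaggcctgccccTTACGTCAgaggcgagcc
G6pc, chr11:101367542-101367571: tgttttgctattTTACGTAAatcaccctga
Ppargc1a, chr5:51567843-51567872, minus strand: acatatttgctcTTACGTccatatctggct
Slc37a4, chr9:44396800-44396829: ctgatcgacgaaACGTAAtaggtcatgtgg

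The G6pc stretch runs past the GENCODE M21 start of the gene, which lies before the RefSeq start. In G6pc the core is read on both strands, and in Slc37a4 it lies on the opposite strand. The windows of Got1, Fbp1, Pcx, Tat and Gpt2 held none of the 6 motifs. A match is a description of letters, and its absence says only that these letters are not in this window.

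Total counts per library ranged from 33746054 to 50647297. Hepatocyte markers (Alb, Ttr, Apoa1, Apob, Cps1, Tf and Fgb) were present in every library, with summed levels of 115844 to 157008 CPM (counts scaled to a common library total, with TMM-adjusted library sizes) in fasted wild type, 141465 to 150322 in fasted K556R, 119609 to 126797 in refed wild type and 115780 to 130705 in refed K556R. Kidney proximal tubule also makes Pck1, G6pc and Fbp1. The summed level of 5 kidney tubule markers (Slc34a1, Slc5a2, Slc22a6, Lrp2 and Umod) was at most 5.05 CPM in any library, with 1 to 4 of the 5 at 0. Prox1, the altered gene, had 185 ± 38.5 CPM in fasted wild type and 105 ± 15.7 in fasted K556R, and 110 ± 15.7 against 75.5 ± 12.1 in refed liver (SD, n = 5). Neither Prox1 difference passed the edgeR test (adjusted p = 0.0666 fasted, 0.559 refed). A point mutation cannot be read from gene counts, and the exons of Prox1 overlap those of Prox1os on the opposite strand, so this is no check of the genotype labels. In bulk liver, fewer cells of a type and less RNA per cell cannot be told apart.

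Refeeding lowered 5 of the 9 members with counts in wild-type liver and raised 1. Pck1, Got1, G6pc, Tat and Gpt2 fell, Fbp1 rose, and Pcx, Slc37a4 and Gpt did not pass the test. Over all 13894 genes tested, 45.1% were called in this comparison, 24.2% lower and 20.9% higher in refed liver. The median log2 change of the 9 members was −0.49, against −0.01 over all genes. In K556R liver 7 of the 9 fell (Pck1, Got1, G6pc, Tat, Gpt2, Slc37a4 and Pcx) and none rose, against a background of 39.9% called, 20.3% lower and 19.6% higher. The median there was −0.71, against 0.01 over all genes. The members were chosen with earlier results of these data known, so these contrasts with all genes are descriptions and no independent test. Calls are by edgeR's quasi-likelihood F test with batch as a term, at a Benjamini-Hochberg adjusted p under 0.05 over all genes. Together the members took 1.69 ± 0.31% of all counts in fasted wild type and 0.68 ± 0.08% in refed wild type, and 1.62 ± 0.23% and 0.70 ± 0.12% in K556R (SD, n = 5).

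**Figure D1:**
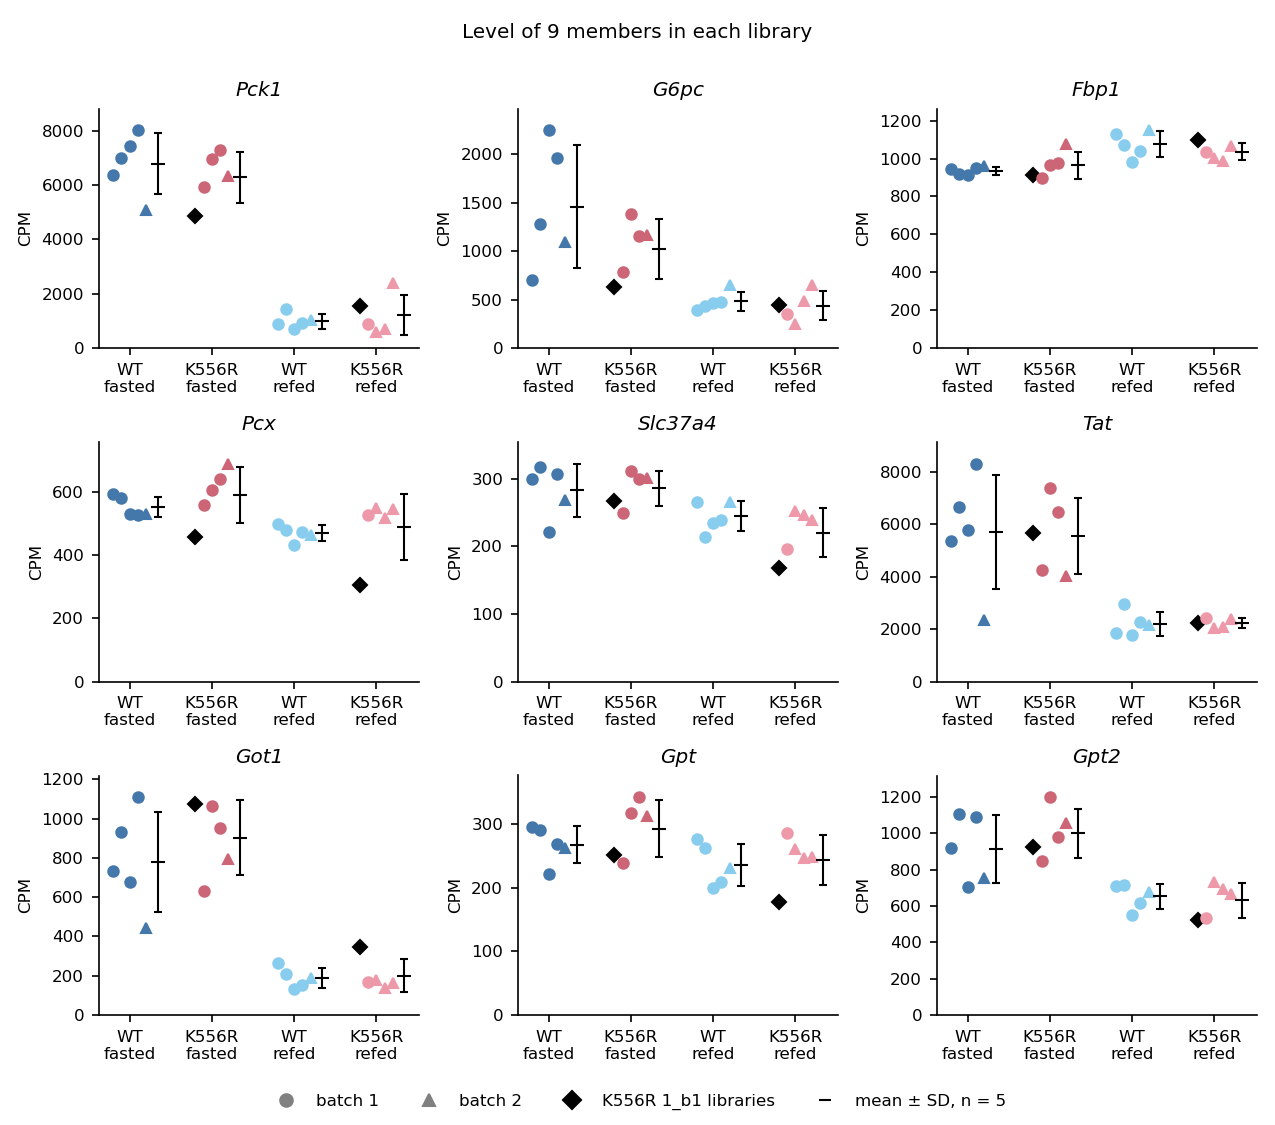
CPM (y axis, from 0) of the 9 members with counts in each of 20 libraries, by group; circles are batch 1, triangles batch 2, black diamonds the K556R 1_b1 libraries, and bars the mean ± SD of 5 libraries. Pck1 and Got1 separate fasted from refed libraries in both genotypes, while Gpt overlaps throughout.

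Pck1, which commits oxaloacetate to glucose production, showed the largest fall of the members. Fasted wild-type libraries had 6367, 7009, 7446, 8016 and 5080 CPM, and refed ones 878, 1427, 686, 904 and 1041. Fasted K556R libraries had 4871, 5934, 6961, 7276 and 6344 CPM, and refed ones 1530, 874, 597, 691 and 2393. Every fasted library lay above every refed library in both genotypes, and 2 refed K556R libraries, 1_b1 and 3_b2, lay above all refed wild-type ones. The level fell by 2.78 on the log2 scale in wild type (SE 0.33, 6.85-fold, edgeR adjusted p = 2.52e-06) and fell by 2.34 in K556R (SE 0.34, 5.06-fold, adjusted p = 2.87e-05). In batch 1 alone the log2 changes were −2.89 and −2.38.

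G6pc, whose product frees glucose from glucose 6-phosphate, fell in both genotypes from widely spread fasted levels. Fasted wild-type libraries had 705, 1281, 2246, 1965 and 1092 CPM, and refed ones 391, 432, 469, 472 and 649. Fasted K556R libraries had 630, 785, 1386, 1157 and 1167 CPM, and refed ones 449, 346, 251, 482 and 647. The feeding groups did not overlap in wild type, whereas in K556R the highest refed library (3_b2) lay just above the lowest fasted one (1_b1). The level fell by 1.61 on the log2 scale in wild type (SE 0.31, 3.06-fold, edgeR adjusted p = 0.00037) and fell by 1.30 in K556R (SE 0.32, 2.46-fold, adjusted p = 0.00358). In batch 1 alone the log2 changes were −1.81 and −1.32.

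Slc37a4, the glucose 6-phosphate transporter that works with G6pc, moved far less. Its fasted wild-type libraries ranged from 221 to 318 CPM and its refed ones from 214 to 266. In K556R they ranged from 249 to 311 CPM fasted and from 168 to 252 refed. The groups overlapped in both genotypes, in K556R only through refed 1_b2, at 252 CPM. The log2 change was −0.22 in wild type (SE 0.10, edgeR adjusted p = 0.0973) and −0.46 in K556R (SE 0.11, adjusted p = 0.00254). The wild-type comparison passed the test without wild type fasted 3_b1 (adjusted p = 0.025) or 1_b2 (adjusted p = 0.038).

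Fbp1, the fructose-1,6-bisphosphatase of the same pathway, was slightly higher after refeeding in wild type. Fasted wild-type libraries had 946, 918, 911, 949 and 960 CPM, and refed ones 1132, 1072, 983, 1038 and 1150. These groups did not overlap, with a rise of 0.20 on the log2 scale (SE 0.06, edgeR adjusted p = 0.0119). In K556R the fasted range of 895 to 1079 CPM overlapped the refed range of 988 to 1096, and the change was 0.08 (SE 0.06, adjusted p = 0.338). In batch 1 alone the wild-type rise of 0.18 had an adjusted p of 0.0500415, just over the threshold.

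Pcx, the entry point from pyruvate, stood at 525 to 593 CPM in fasted and 431 to 500 in refed wild type. The wild-type groups did not overlap, yet the change of −0.24 did not pass (SE 0.12, edgeR adjusted p = 0.118), and it passed without K556R refed 1_b1 (adjusted p = 0.024), which shares the estimate of spread. In K556R the fasted libraries had 458, 560, 606, 641 and 689 CPM and the refed ones 306, 526, 548, 517 and 547. The lowest value in each K556R group belonged to 1_b1. The K556R change of −0.34 (SE 0.13, adjusted p = 0.0364) became −0.17 without K556R refed 1_b1, with an adjusted p of 0.164. It also missed the threshold without K556R fasted 3_b1, 4_b1 or 1_b2 or K556R refed 2_b2, and with the repeat number as a block (−0.39, adjusted p = 0.0688).

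K556R refed 1_b1 and K556R fasted 1_b1 also had the highest summed levels of lymphocyte markers (Cd3e, Cd3d, Cd8a, Cd79a and Ms4a1), at 3.08 and 3.51 CPM against at most 1.34 in the wild-type libraries. Their summed proliferation markers (Mki67, Top2a, Ccnb1, Cdk1 and Mcm2) were 30.4 and 12.3 CPM, against at most 6.84 in wild type. Of each list, at most 1 of 5 markers was at 0 in any library. Both libraries were also the highest of their group in summed Kupffer and stellate markers. The part of these markers in the Pcx values was not tested. With both libraries left out, the Pcx change was −0.24 in wild type (edgeR adjusted p = 0.00425) and −0.24 in K556R (adjusted p = 0.0176), and 7 members passed in each genotype.

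Ppargc1a was listed at 0 in all 20 libraries, in fasted liver too, and no level of the gene is read from this row. A separate row named PGC-1v held 0 to 17 counts per library and was not matched to Ppargc1a. Ppargc1b, the gene of the related coactivator PGC-1β, held 102 to 379 counts.

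**Figure D2:**
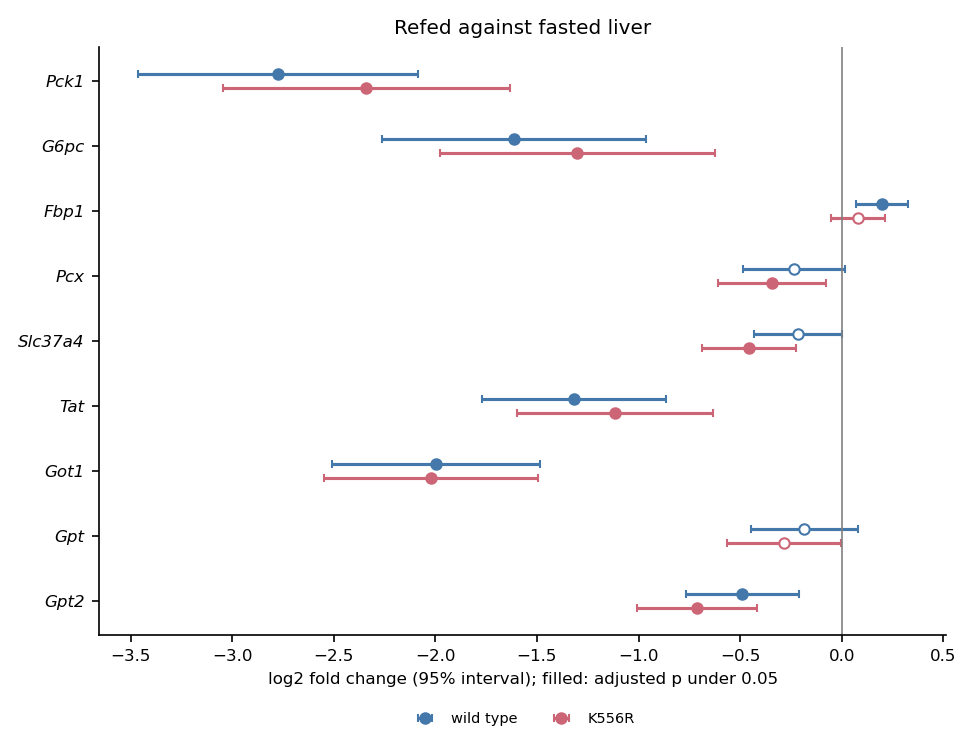
Log2 fold change of each member, refed against fasted (x axis), with 95% intervals, in wild type (blue) and K556R (red); filled points have an adjusted p under 0.05. Pck1, at −2.78 and −2.34, lies farthest below 0, and Fbp1 is the 1 member above 0.

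Among the transaminases, Got1 fell most. Fasted wild-type libraries had 734, 930, 676, 1109 and 443 CPM of Got1, and refed ones 265, 211, 132, 151 and 187. Fasted K556R libraries had 1072, 629, 1066, 951 and 794 CPM, and refed ones 347, 170, 180, 138 and 163. Fasted and refed libraries did not overlap in either genotype, and refed K556R 1_b1 lay above the other 4 of its group. Got1 fell by 2.00 on the log2 scale in wild type (SE 0.24, 4.00-fold, edgeR adjusted p = 3.11e-06) and fell by 2.02 in K556R (SE 0.25, 4.06-fold, adjusted p = 5.81e-06). Within batch 1 the log2 changes were −2.18 and −1.85, and within batch 2, which had 1 library in 3 of the groups, −1.24 and −2.30.

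Tat, the tyrosine aminotransferase long used as a marker of glucocorticoid action, fell in both genotypes. Fasted wild-type libraries had 5381, 6673, 5797, 8313 and 2347 CPM, and refed ones 1851, 2964, 1771, 2253 and 2161. Fasted K556R libraries had 5662, 4255, 7401, 6479 and 4016 CPM, and refed ones 2249, 2416, 2034, 2064 and 2386. In wild type a single fasted library, 1_b2 at 2347 CPM, reached into the refed range, and in K556R the groups did not overlap. Tat fell by 1.32 on the log2 scale in wild type (SE 0.22, 2.49-fold, edgeR adjusted p = 6.34e-05) and fell by 1.12 in K556R (SE 0.23, 2.17-fold, adjusted p = 0.00072). Batch 1 alone gave −1.56 and −1.35, and batch 2 alone −0.11 and −0.89, where the wild-type value compares 1 library with 1.

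Of the alanine aminotransferases, the mitochondrial Gpt2 fell and the cytosolic Gpt did not pass. Gpt2 had 919, 1106, 701, 1090 and 752 CPM in fasted and 710, 712, 549, 616 and 678 in refed wild type, where the groups overlapped. In K556R it had 923, 845, 1197, 980 and 1057 CPM fasted and 525, 533, 732, 693 and 666 refed, with no overlap. Gpt2 fell by 0.49 on the log2 scale in wild type (SE 0.13, edgeR adjusted p = 0.00498) and fell by 0.71 in K556R (SE 0.14, adjusted p = 0.000471). Gpt ranged from 222 to 295 CPM in fasted and 199 to 276 in refed wild type, and from 239 to 342 and 178 to 285 in K556R. The Gpt change was −0.18 (95% interval −0.45 to 0.08, adjusted p = 0.254) in wild type and −0.28 (−0.56 to −0.01, adjusted p = 0.0988) in K556R. Without K556R refed 2_b1 the K556R change of Gpt passed (adjusted p = 0.0382).

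Levels of different genes can be set side by side per length, as CPM per kilobase of annotated exon (the union of all exons in GENCODE M21). In fasted wild type the order was Tat at 2371 CPM per kb, Pck1 at 1978, G6pc at 604, Fbp1 at 551, Got1 at 307, Gpt2 at 162, Pcx at 116, Slc37a4 at 98.97 and Gpt at 90.9. Of these neighbours, Pck1 and G6pc, and Fbp1 and Got1, did not overlap across the 5 libraries, while the other neighbours did. In refed wild type the order was Tat at 915, Fbp1 at 632, Pck1 at 288, G6pc at 200, Gpt2 at 116, Pcx at 98.7, Slc37a4 at 85.5, Gpt at 80.0 and Got1 at 74.4 CPM per kb. Fbp1 thus stood below Pck1 in every fasted wild-type library and above it in every refed one, and Got1 went from the fifth place to the last. A union of exons is longer than any 1 transcript, so these per-length values understate genes with many isoforms.

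The cytosolic and mitochondrial forms of the same enzymes were compared on this per-length scale after their levels had been seen. Pck2, the mitochondrial phosphoenolpyruvate carboxykinase, had 0.27 ± 0.04 CPM per kb in fasted wild type, and Pck1 stood 7369 ± 1211 times higher (SD, n = 5). After refeeding the Pck1 to Pck2 ratio was 1417 ± 477. The exon lengths used, 7806 bases for Pck2 and 3429 for Pck1, raise these ratios. Counts alone gave 3237 ± 532 fasted and 622 ± 209 refed. Got1 stood 3.38 ± 1.11 times above mitochondrial Got2 in fasted wild type and at 0.75 ± 0.21 times Got2 after refeeding, with 3.76 ± 0.81 and 0.83 ± 0.48 in K556R. The lengths, 4824 bases for Got2 and 2539 for Got1, raise these ratios too. In wild type, counts alone gave 1.78 ± 0.59 fasted and 0.40 ± 0.11 refed. Got2 itself changed by 0.12 on the log2 scale in wild type and 0.02 in K556R (edgeR adjusted p = 0.111 and 0.813). Gpt stood at 0.57 ± 0.08 times Gpt2 in fasted and 0.69 ± 0.04 times in refed wild type. The exons of Pck2 and Got2 each overlap a gene on the opposite strand, and the labels do not say whether strand was kept, so their reads cannot be told apart from those of that gene. No exon of the 10 members overlaps another annotated gene.

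The remaining steps of the pathway, from a list of 25 enzymes and carriers of which 24 were tested, moved less and mostly the other way in wild type. Refeeding lowered 4 of the 24 and raised 11, with a median log2 change of 0.15. Sds, serine dehydratase, which turns serine into pyruvate, fell from 254 ± 72.2 to 85.2 ± 27.5 CPM (log2 change −1.54, SE 0.29, edgeR adjusted p = 0.000335). Gyk, glycerol kinase, changed by −0.49 and Slc25a13, the aspartate and glutamate carrier, by −0.32 on the log2 scale. The risers were led by Tpi1 (0.46), Pgam1 (0.28) and Gapdh (0.40), enzymes of the reversible steps shared with glycolysis. In K556R 4 of the 24 fell and 2 rose, with a median of 0.01, and none of the 24 passed the test of the interaction between genotype and feeding. Of all genes tested, 24.2% fell and 20.9% rose in wild type, and 20.3% fell and 19.6% rose in K556R.

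Other aminotransferases, of which 12 of 13 were tested, showed no common direction. In wild type 3 fell, Aadat by 0.35, Oat by 0.42 and Ccbl2 by 0.44 on the log2 scale, and 4 rose, among them Bcat2 (0.73), Ccbl1 (0.62) and Agxt2l2 (0.43). Bcat2 is the mitochondrial branched-chain aminotransferase and Oat acts on ornithine. In K556R none fell and 4 rose. For comparison, 45.1% of all genes tested were called in wild type and 39.9% in K556R. The median change was 0.10 in wild type and 0.14 in K556R.

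Regulators that act on the pathway fell more often than they rose: of 24 tested, 16 fell and 3 rose in wild type, and 14 fell and 1 rose in K556R. The shares over all genes were 24.2% lower and 20.9% higher in wild type, and 20.3% and 19.6% in K556R. This list too was chosen with earlier results known, so the contrast is no independent test. Foxo1, a transcription factor that insulin signalling removes from the nucleus, fell from 98.4 ± 15.8 to 31.9 ± 2.40 CPM in wild type (log2 change −1.62, SE 0.10, edgeR adjusted p = 1.13e-09). Ppara, the fatty acid sensing nuclear receptor of fasting, changed by −1.14 and the deacetylase Sirt1 by −0.85. Those that rose in wild type were Foxa2 (0.77), Kat2a (0.25) and Cebpa (0.30). The list median was −0.60 in wild type and −0.42 in K556R. In a list of 5 genes of glycolysis and its control, Pklr (1.32) and Gckr (0.44) rose in wild type, and each also rose in K556R (0.47 and 0.27). From the same list, Pfkl (−0.15) and Pfkfb1 (−0.08), chosen after their values were seen, did not pass in wild type, and Pfkfb1 fell by 0.40 in K556R (edgeR adjusted p = 0.0243).

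**Figure D3:**
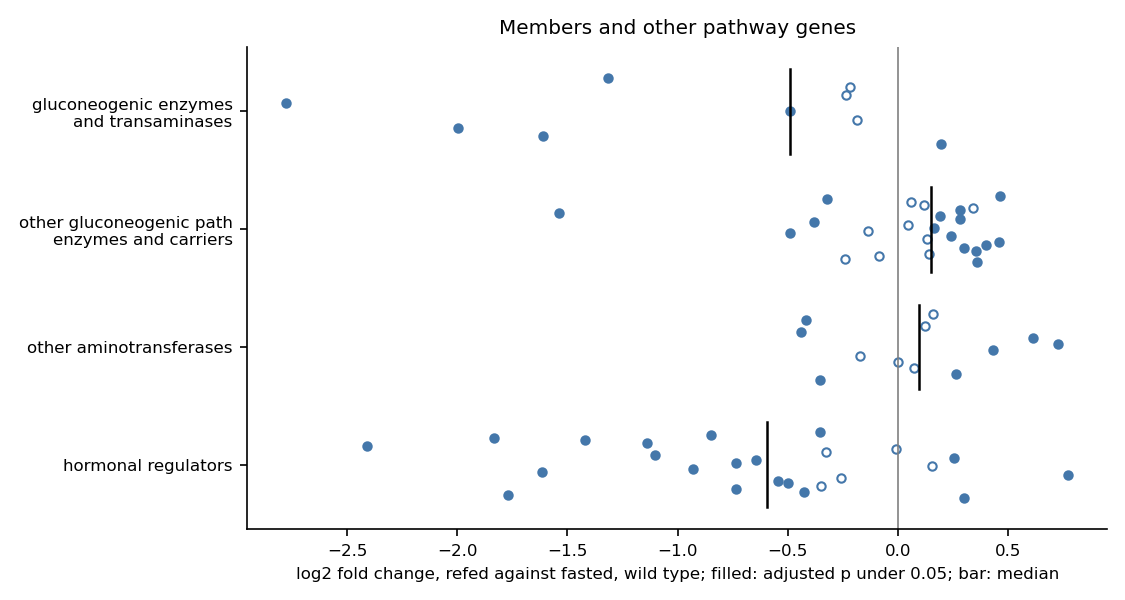
Log2 fold change, refed against fasted in wild type (x axis), of each tested gene in 4 lists; filled points have an adjusted p under 0.05 and the black bar is the list's median. The members' median is −0.49, that of the hormonal regulators −0.60 and that of the other path enzymes and carriers 0.15.

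Between genotypes, no member differed by the edgeR test in fasted or refed liver, and none passed the test of the interaction with feeding. The background was equally empty: 0% of the 13894 genes were called in fasted liver, 0% in refed liver and 0% for the interaction. At an unadjusted p under 0.05 there were 1136, 693 and 553 genes, and DESeq2 called 68, 6 and 1, with no member among them. The lowest adjusted p of a member was 0.728 in fasted liver, 0.965 in refed liver and 1.00 for the interaction. All genotype comparisons of the 9 members overlapped between groups. The share over all genes was not computed, so this overlap alone tells little.

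The largest genotype difference in fasted liver was that of G6pc, with 1458 ± 635 CPM in wild type and 1025 ± 309 in K556R (SD, n = 5). Its log2 difference of −0.52 had a 95% interval of −1.16 to 0.12, and the batches gave −0.65 and 0.09. Pck1 differed by −0.11 in fasted liver, with an interval of −0.75 to 0.54. These intervals leave room for differences of over 1.5-fold, so the members cannot be said to be alike in the genotypes. For Fbp1 the interval was narrow, from −0.09 to 0.17 in fasted and −0.21 to 0.06 in refed liver.

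In refed liver the member with the lowest p was Slc37a4, with 244 ± 22.2 CPM in wild type and 220 ± 36.5 in K556R. Its log2 difference was −0.23 (95% interval −0.46 to 0.001, edgeR adjusted p = 0.965). Pck1 differed by 0.33 in refed liver (−0.35 to 1.01), and without K556R refed 3_b2 the difference was −0.05. The refeeding change of Pck1 differed between genotypes by 0.44 (−0.49 to 1.37), that of G6pc by 0.31 (−0.60 to 1.22), that of Tat by 0.20 (−0.44 to 0.84) and that of Got1 by −0.02 (−0.73 to 0.68). Single libraries moved these differences: Pck1 went to 0.04 without K556R refed 3_b2, G6pc to 0.08 without wild type fasted 3_b1 and Tat to 0.03 without wild type fasted 4_b1. Got1 ranged from −0.28 without K556R refed 1_b1 to 0.15 without wild type refed 1_b2. Calls that passed in 1 genotype and not in the other, as for Fbp1, Pcx and Slc37a4, are therefore not shown to differ between them.

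**Figure D4:**
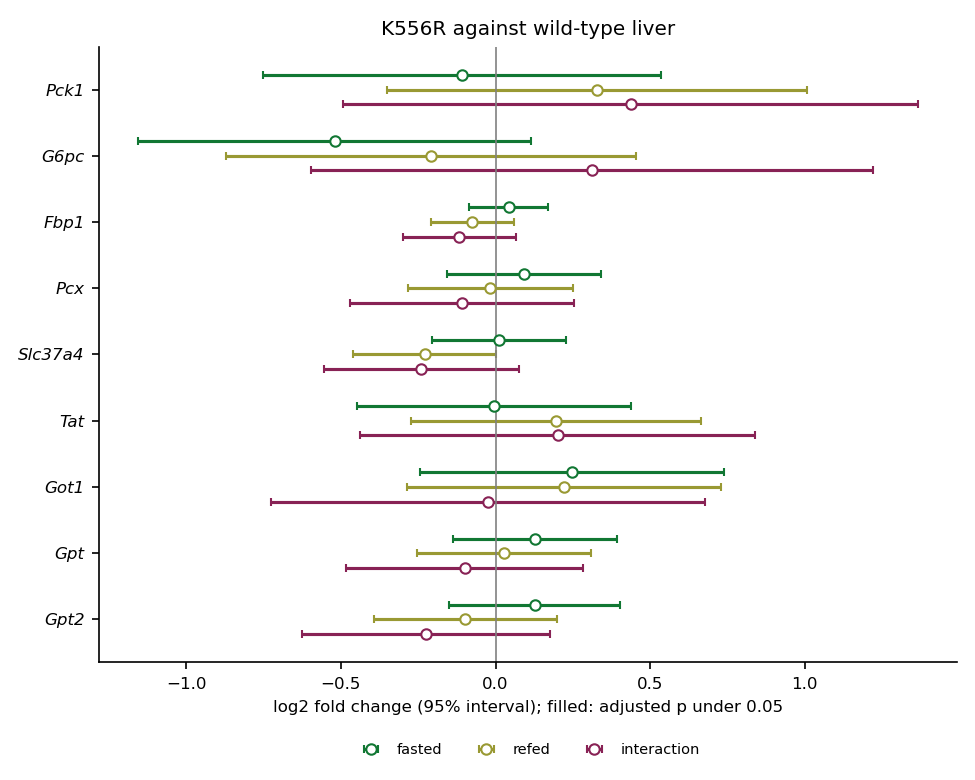
Log2 difference of each member (x axis), K556R against wild type, in fasted liver (green) and refed liver (olive), and the interaction of genotype and feeding (purple), with 95% intervals. No point is filled, since none has an adjusted p under 0.05; the widest intervals are those of Pck1 and G6pc.

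The members were also compared with Pck1 across libraries of the same group. After removal of group and batch means from log2 CPM, the relation of Pck1 with each of the 8 other members with counts was computed over the 20 libraries. The permutations shuffled these residuals freely, without allowing for the means removed, so the permutation p-values below are too small. For G6pc, Pearson's r was 0.59 (permutation p = 0.00625, adjusted over 8 relations 0.05) and Spearman's rho 0.62 (permutation p = 0.00474, adjusted 0.0338). Without the 2 libraries farthest from the median of Pck1, K556R refed 3_b2 and 1_b2, r was 0.43 (permutation p = 0.0768), and within batch 1 it was 0.44. Among the fasted libraries alone, which hold neither of those 2, r for G6pc was 0.81, and among the refed libraries it was 0.70. For Fbp1, r was 0.52 (permutation p = 0.016, adjusted 0.0638) and rho 0.58 (permutation p = 0.00846, adjusted 0.0338), with r of 0.61 (permutation p = 0.0071) without the 2 farthest libraries and 0.57 within batch 1. The tests for Tat (r 0.44, adjusted permutation p = 0.136) and Got1 (r 0.37, adjusted permutation p = 0.211) did not pass, while without the 2 farthest libraries their r was 0.51 and 0.62 (permutation p = 0.033 and 0.00663). For Pcx, Slc37a4, Gpt and Gpt2, r lay between −0.13 and 0.14 over the 20 libraries. These pooled values differ from those by feeding state, for which no test was run: Pcx had 0.74 in fasted and −0.23 in refed libraries, Slc37a4 0.37 and −0.42, Gpt 0.46 and −0.13, and Gpt2 0.48 and 0.01. In batch 2, 3 of the groups had 1 library each, so no value is given for it. All points share the library's scaling, and a value from 1 library enters both axes.

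**Figure D5:**
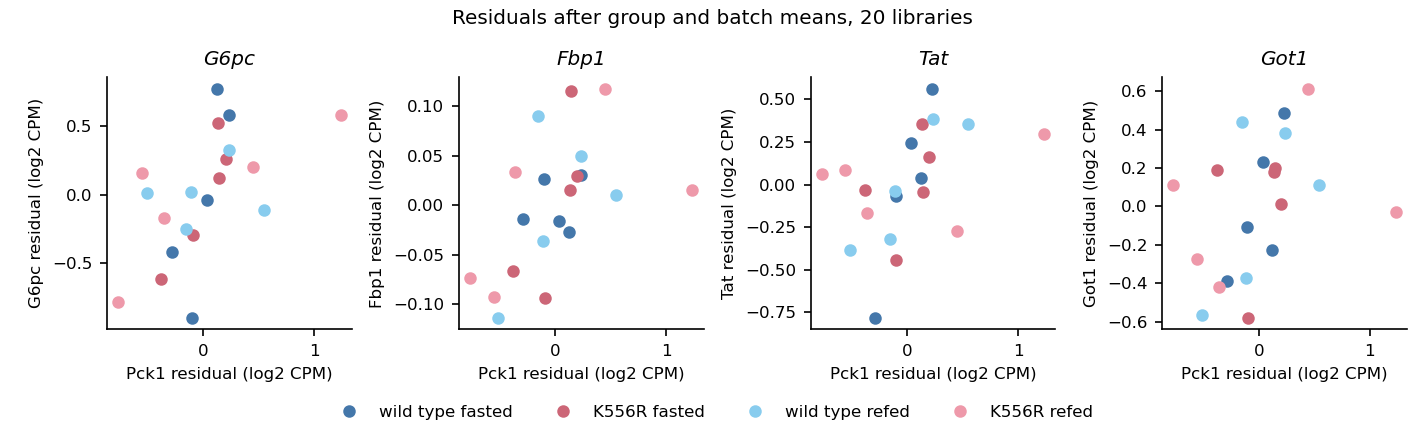
Residual log2 CPM of G6pc, Fbp1, Tat and Got1 (y axes) against that of Pck1 (x axis), after group and batch means were removed, 1 point per library in 20 libraries, coloured by group. The point farthest right is K556R refed 3_b2; r is 0.59 for G6pc and 0.37 for Got1.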

How the data were processed

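Liver RNA from 20 samples in 4 groups was sequenced. The authors deposited raw read counts per gene as 1 table with 29915 genes. Per the labels' protocols, poly-T beads were used to purify messenger RNA, and the library is described as directional or non-directional without saying which. The tools named in the submitters' processing notes are DESeq2, edgeR, HTSeq, STAR, TopHat and STAR-Fusion, and the build is mm10. Which of them made the counts is not given in the sources used here. The test was that of edgeR 4.0.16 under R 4.3.3 (filterByExpr with minimum count 10 and minimum total 15, TMM, robust quasi-likelihood F test, group and batch in 1 model), and p-values were adjusted over 13894 genes. The method was tested on simulated data that held no batch effect, with changes in refed wild type only. That test does not cover the unbalanced batch of these data. Totals were 33746054 to 50647297 counts per library. Each of the 9 members with counts had at least 5379 counts in every library, so their counting error was small beside the spread between libraries. The same is not said of rows with few counts, such as Pck2 and the lymphocyte markers. Alternatives were RLE scaling, DESeq2 1.42.0, other filters, no batch term, single batches, a replicate block and left-out libraries. Permutation tests used 100000 resamples and were two-sided. All 10 members are named, with up to 3 called genes of lowest p in each direction from each other list, and a result that this rule takes is not reported here. Positions and exon lengths are from GENCODE M21 (GRCm38). Members and lists were chosen with earlier results of these data known. A planned relation with Ppargc1a could not be computed, because its row is listed at 0, and Pck1 took its place after the data were seen.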

Additional observations from a re-analysis of the deposited data

Results flagged for a closer look

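Among 9 members in 4 groups of 5 libraries, 2 values stood far from the rest of their group, both in K556R refed 1_b1. Chance flags about 1 in 20 groups for each member, so about as many flags are expected by chance. Pcx was at 305.708 CPM there, while the other 4 libraries of the group lay between 517 and 548. Got1 was at 347.366 CPM there, while the other 4 lay between 138 and 180. This library also had the highest summed proliferation markers (30.4 CPM) and the highest summed kidney tubule markers (5.05 CPM) of its group. It was likewise highest of its group in lymphocyte, Kupffer, stellate, endothelial, cholangiocyte and adipose markers, but not in hepatocyte or intestine markers. Its summed Kupffer markers were at 127 CPM, against a group median of 75.4. The part of these markers in the Pcx and Got1 values was not tested.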

How the results depend on the processing

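No call changed direction under any alternative. RLE scaling moved the members' values by at most 0.02 on the log2 scale, and RLE scaling, DESeq2, no filter and the stricter filter kept 6 members called in wild type and 7 in K556R. Where edgeR called 0 genes, DESeq2 called 68 genes between genotypes in fasted liver, 6 in refed liver and 1 for the interaction. Batch 2 alone, with 1 library in 3 of the 4 groups and the spread taken from K556R refed, called 1144 genes for refeeding in wild type, 2702 in K556R, 220 and 12 between genotypes in fasted and refed liver, and 21 for the interaction. It called 1 member, Got1, in wild type, and there the changes of Pck1 (−2.28), G6pc (−0.74), Tat (−0.11), Gpt2 (−0.14) and Fbp1 (0.27) did not pass. In K556R batch 2 alone lost the calls of Pck1 (−2.36, adjusted p = 0.319), G6pc (−1.33, adjusted p = 0.324) and Slc37a4 (−0.29, adjusted p = 0.0594) and gained Gpt (−0.30, adjusted p = 0.0472). Leaving out K556R fasted 1_b1 and K556R refed 1_b1 together gave 1 gene between genotypes in fasted liver. Leaving out single libraries gave 0 to 2 genes between genotypes in fasted liver, 2 of them without wild type fasted 3_b1 or without K556R fasted 3_b1, and 1 without K556R refed 1_b1. In refed liver it gave 0 to 1, with 1 gene without wild type fasted 3_b1. Members called ranged from 6 to 7 in wild type and from 6 to 8 in K556R. The Pcx call in K556R was also lost without a batch term (adjusted p = 0.0856) and in batch 1 alone (adjusted p = 0.0739). The cause of these changes was not tested. In batch 1, deviations of same-numbered libraries from different groups correlated from −0.25 to 0.63 (median −0.02, 18 pairs), so the repeat numbers were not taken to pair samples. With the replicate block, 5929 genes were called for refeeding in wild type, 4511 in K556R and 0 in each other comparison, with 6, 6, 0, 0 and 0 members. The relation with Ppargc1a was not run, since its row is listed at 0. Whether the spread between libraries, the depth or the group size limited the genotype comparisons was not tested.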

Other observations

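A pair of regulators in the hormonal list, chosen after their values were seen, passed the refeeding test in wild type and not in K556R. Foxa2 (0.77 in wild type, 0.20 in K556R) and Cebpa (0.30 and 0.17) of the same list, which rose, did so too. Nr4a1, an immediate-early nuclear receptor induced by cyclic AMP, fell by 2.41 on the log2 scale after refeeding in wild type (SE 0.55, edgeR adjusted p = 0.00169) and changed by −0.05 in K556R (SE 0.58, adjusted p = 0.96). Sik1, a salt-inducible kinase that restrains CREB coactivators, fell by 1.83 in wild type (SE 0.39, adjusted p = 0.000941) and changed by −0.51 in K556R (SE 0.39, adjusted p = 0.322). The interaction was 2.36 for Nr4a1 and 1.32 for Sik1, and neither passed (adjusted p = 1.00 for both), so the genotypes are not shown to differ. For Pklr, liver pyruvate kinase, the rise was 1.32 in wild type and 0.47 in K556R, with an interaction of −0.85 (SE 0.22) that did not pass either (adjusted p = 1.00).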
